A study of Mus musculus with 19 samples.

Results

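The 9 genes described here are imprinted genes of growth control, the RNA gene H19 and the protein-coding genes Igf2, Mest, Peg3, Plagl1, Cdkn1c, Grb10, Dlk1 and Nnat. They were chosen by name, and each of the 9 had 1 row among the 24844 genes of the deposited expression table. They were measured in whole inguinal fat of 19 wild-type C57BL/6JRj mice by 3' RNA sequencing, with 1 library per mouse. All mice lived at 29 °C, thermoneutrality for mice, after 14 days of acclimatization, and tissue was taken at day 14 of the tumour experiment. The healthy group (n = 4) had no tumour and received control AAV, an adeno-associated virus, with PBS injections. The tumour control group (n = 5) received control AAV and had a tumour of CHX207 cells, a fibrosarcoma line, in the right gastrocnemius, a muscle of the calf. The FGF21 AAV group (n = 5) carried the same tumour and a virus encoding FGF21, a hormone that acts on fat, liver and brain. The efruxifermin group (n = 5) carried the same tumour and received efruxifermin, an engineered FGF21 protein, at 2 mg/kg into the abdomen in 6 injections, and the labels do not say that these mice also had control AAV. Tumour mice were first treated 9 days ahead of the tumour injection. The labels used here give neither sex nor age, and the comparisons of both treatments with tumour control share the same 5 control libraries.

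An imprinted gene is read mainly from the copy inherited from 1 parent, set by DNA methylation laid down in egg or sperm. Many such genes form a network that sets fetal and early postnatal growth and falls silent in most adult tissues. In general, genes read from the father's copy (Igf2, Mest, Peg3, Plagl1, Dlk1, Nnat) favour growth, and genes read from the mother's copy (H19, Cdkn1c, Grb10) restrain it, with exceptions. In adult fat Mest is known as a marker of fat mass expansion, Dlk1 marks preadipocytes and Nnat is made by adipocytes. In adult skeletal muscle H19 stays abundant.

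Expression is given as RPM, reads per 1000000 reads of a library, from 2011067 to 3693864 reads per library. Differences are differences of mean log2(RPM + 1), which understate the change of genes with few reads. They were tested with limma over 17013 genes, with Benjamini-Hochberg adjustment over all of them, and a gene was called at an adjusted p under 0.05. All 12 adipocyte markers, among them Adipoq, Plin1 and Fabp4, had reads in every library. The libraries held unequal amounts of other tissues. The summed RPM of 18 skeletal muscle markers ran from 477.74 to 47735 in healthy, 57.5 to 119520 in tumour control, 63.1 to 2757 in FGF21 AAV and 81.1 to 39597 in efruxifermin fat. The summed RPM of 10 B cell markers, as found in the lymph node inside this fat pad, ran from 4.22 to 1822 in healthy, 4.602 to 3953 in tumour control, 8.41 to 1237 in FGF21 AAV and 14.0 to 1399 in efruxifermin fat. In a bulk sample, fewer cells of a type and less RNA per cell cannot be told apart.

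Nnat was the member that differed with treatment: it was higher in tumour mice given FGF21 AAV or efruxifermin than in tumour control mice. H19 was the member that moved with skeletal muscle RNA from library to library, in every group. Igf2 was at or near 0 in all 4 groups. The other 6 members had no called difference between groups.

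**Figure D1:**
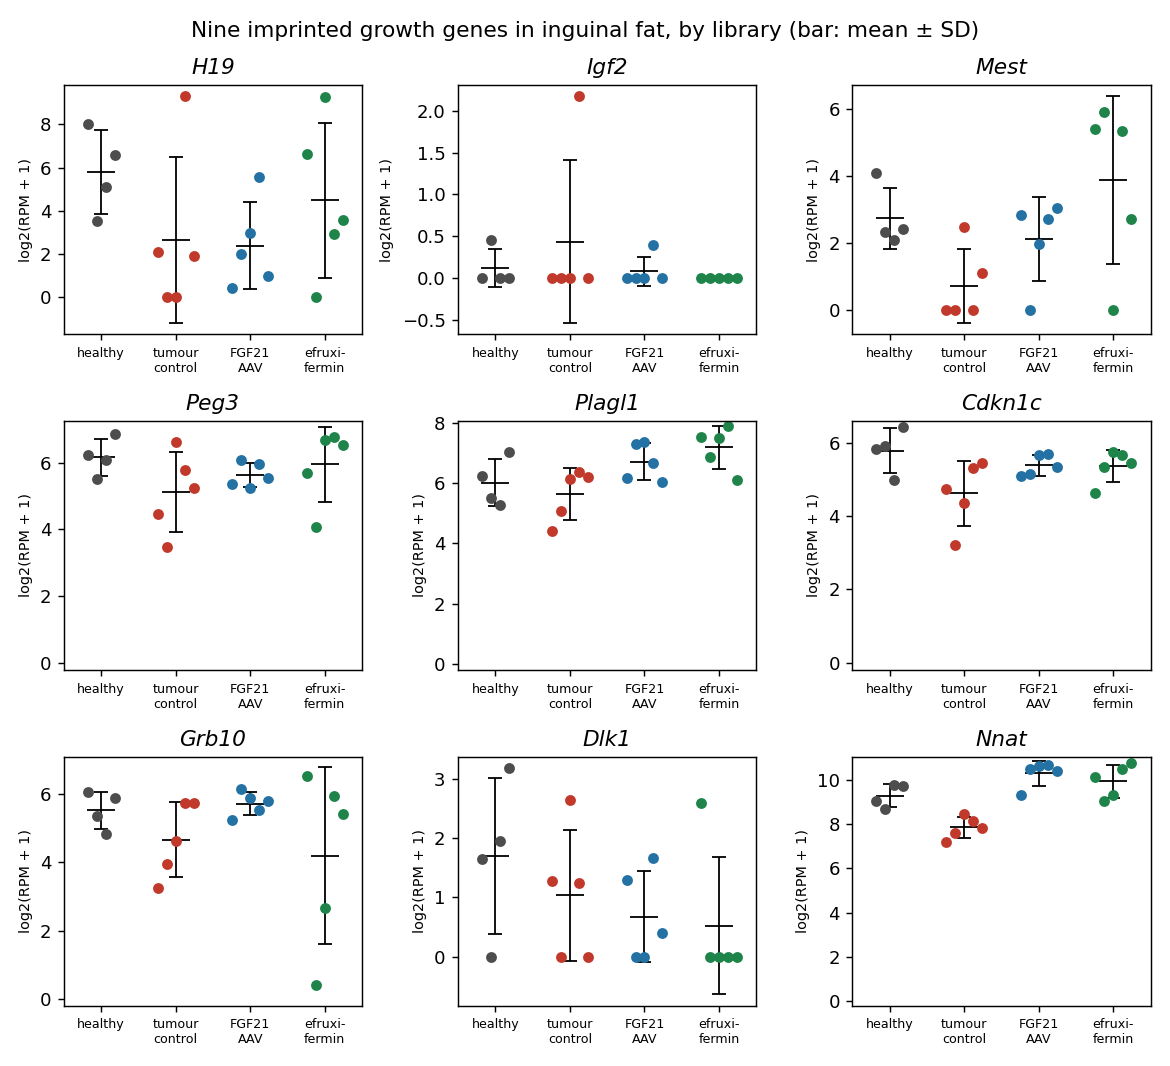
Expression of the 9 genes in the 19 libraries, 1 panel per gene, with log2(RPM + 1) on the vertical axis and the 4 groups on the horizontal axis. Each point is 1 mouse, and the bars give the mean and SD of the group. The 5 tumour control points of Nnat lie below all points of the other 3 groups, while H19 spans from 0 to 629.96 RPM in tumour control and from 0 to 621 RPM in efruxifermin fat.

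Nnat (ENSMUSG00000067786, chromosome 2) encodes neuronatin, a small membrane protein of the endoplasmic reticulum. In healthy fat it was at 525, 402, 849 and 827 RPM. In tumour control fat it was at 146, 193, 349, 278 and 225 RPM. These 2 groups did not overlap, and each tumour control library lay below the lowest healthy library. In FGF21 AAV fat Nnat was at 628, 1412, 1556, 1634 and 1343 RPM. In efruxifermin fat it was at 1101, 516, 623, 1413 and 1692 RPM. All 10 libraries of the treated groups lay above all 5 tumour control libraries, and both treated groups overlapped healthy fat.

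The promoter of Nnat is shown because Nnat is the member with a called treatment difference. It is the RefSeq entry at chr2:157559828-157560127 of GRCm38.p6, plus strand, with 250 bases before the transcript start and 50 after it. The capitals mark the 50 bases from the start on.
Nnat promoter: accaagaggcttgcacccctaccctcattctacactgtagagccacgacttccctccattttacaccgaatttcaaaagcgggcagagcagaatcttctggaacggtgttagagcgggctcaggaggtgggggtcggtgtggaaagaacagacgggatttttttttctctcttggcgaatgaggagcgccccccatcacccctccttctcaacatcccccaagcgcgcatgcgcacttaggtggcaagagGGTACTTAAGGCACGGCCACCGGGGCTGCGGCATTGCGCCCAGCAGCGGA
The window was searched on both strands for the GC box GGGCGG, which 35.7% of the 32851 RefSeq promoters of this length hold, and for the CCAAT box, which 37.4% hold. It was also searched for TATAAA, the TATA box, which 13.6% hold, and for AGGTCA, a motif of nuclear receptors, which 16.3% hold. None of the 4 runs of letters was in this window, which says nothing about the factors that bind there.

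Against tumour control, Nnat rose by a log2 difference of 2.45 ± 0.34 (SE), or 5.46-fold, with FGF21 AAV, with a limma adjusted p of 0.00188 and a 95% interval of the log2 difference of 1.74 to 3.15. With efruxifermin it rose by 2.08 ± 0.34, or 4.23-fold, with a limma adjusted p of 0.00929 and an interval of 1.38 to 2.79. Nnat was also called by edgeR, with an adjusted p of 0.00752 with FGF21 AAV and 0.0238 with efruxifermin, where edgeR called 0.0470% and 0.270% of all genes. DESeq2 called it with adjusted p-values of 2.99e-08 and 7.13e-06, where it called 8.55% and 2.57% of the genes it gave an adjusted p. By limma it was the 1 member of 8 tested that rose with FGF21 AAV, where 0.517% of all genes tested were called higher, and the 1 of 8 that rose with efruxifermin, where 0.676% were. Its groups did not overlap in either comparison, as for 2.71% of all genes in the first and 1.06% in the second. In tumour control against healthy fat Nnat had a log2 difference of -1.44 ± 0.36, a 95% interval of -2.19 to -0.69 and a limma adjusted p of 0.137, and it was not called.

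The 2 treatments differ in form and dose, and their values are set side by side. The log2 difference of Nnat, efruxifermin minus FGF21 AAV, was -0.37 with a 95% interval of -1.07 to 0.34 (limma adjusted p = 0.933). Against healthy fat the log2 difference was 1.01 (interval 0.26 to 1.75) with FGF21 AAV and 0.64 (interval -0.11 to 1.39) with efruxifermin, with limma adjusted p-values of 0.865 and 0.678. In order of mean RPM, FGF21 AAV (1314 ± 401, SD) came before efruxifermin (1069 ± 503), healthy (651 ± 222) and tumour control (238 ± 78.4), and of neighbours in this order, healthy and tumour control alone did not overlap.

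Adipocyte RNA moved between the same groups as Nnat. The summed RPM of the 12 adipocyte markers was 2332 to 15225 in tumour control, 20759 to 43319 in FGF21 AAV, 9077 to 42459 in efruxifermin and 16447 to 41622 in healthy fat. All 12 markers had log2 differences above 0 in both treatment comparisons. Their median was 1.94 with FGF21 AAV and 1.71 with efruxifermin, beside -0.05 and -0.14 over all genes tested. At an unadjusted limma p under 0.05 the count was 12 and 11, where 16.0% and 13.9% of all genes passed. DESeq2 called 11 and 9, where it called 8.55% and 2.57% of the genes it gave an adjusted p, and edgeR called 0. Limma called 2 in each comparison, where 0.517% and 0.676% of all genes were called higher. The markers called by limma were Fabp4, a fatty acid binding protein, and Lpl, lipoprotein lipase, with FGF21 AAV, and Lpl and Cd36, a fatty acid transporter, with efruxifermin. They were named after their values were seen. With the adipocyte score (mean log2(RPM + 1) of the 12 markers) as a covariate, the log2 difference of Nnat was 1.89 ± 0.43 with FGF21 AAV (limma adjusted p = 0.602) and 1.57 ± 0.41 with efruxifermin (limma adjusted p = 0.483), and neither was called. The unadjusted limma p-values of Nnat were then 0.000212 and 0.000901. In that fit 1 of 17013 genes was called in each of these comparisons, beside 96 and 130 without the covariate.

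**Figure D2:**
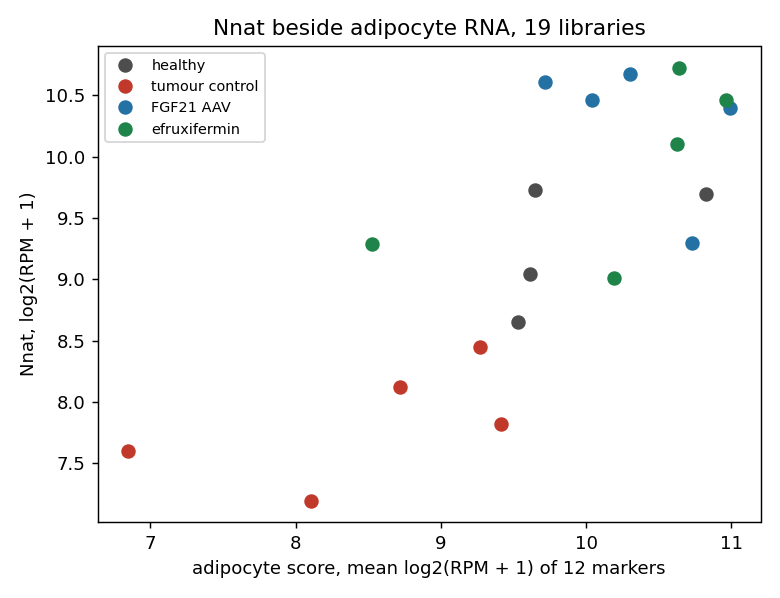
Nnat, as log2(RPM + 1), against the adipocyte score, the mean log2(RPM + 1) of 12 adipocyte markers, in 19 libraries coloured by group. The tumour control libraries have adipocyte scores from 6.85 to 9.41 and the lowest Nnat values, and 1 efruxifermin library, with a score of 8.52, lies within that range of scores at 623 RPM of Nnat.

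Within groups the slope of Nnat on the adipocyte score was 0.30 ± 0.15 log2 units per unit of score (limma adjusted p = 0.498), and it was not called, where 2.05% of all genes were called upward. Lymph node RNA also differed between the groups, with B cell scores above 3 in 4 of 5 tumour control, 2 of 5 FGF21 AAV, 3 of 5 efruxifermin and 2 of 4 healthy libraries. Among the libraries with a score above 3 the log2 difference of Nnat was 2.18 with FGF21 AAV (limma adjusted p = 0.174) and 2.30 with efruxifermin (limma adjusted p = 0.0302). In these libraries limma called 1 and 298 of 17013 genes in the 2 comparisons. Among the others, with 1 tumour control library, it was 2.39 and 1.57 (limma adjusted p = 0.236 and 0.496). The part of adipocyte RNA and of lymph node RNA in the differences of Nnat was not tested beyond these values. The efruxifermin call of Nnat was lost when efruxifermin library 1 was left out (limma adjusted p = 0.0501), when library 4 was left out (0.0536) and when those 2 groups were fitted alone (0.188), at log2 differences of 2.03, 1.94 and 2.08. In these 3 fits limma called 4, 5 and 1 of 17013 genes, beside 130 in the fit of all libraries.

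Nnat overlaps Blcap, and Mest overlaps Copg2, each on the opposite strand, in the GENCODE M21 annotation, and whether the authors counted by strand is not given in the sources used here. Blcap, the gene of a small membrane protein, was at 102 ± 31.6 RPM in healthy, 64.7 ± 20.6 in tumour control, 153 ± 28.8 in FGF21 AAV and 119 ± 47.8 in efruxifermin fat. Its log2 difference was 1.27 with FGF21 AAV (limma adjusted p = 0.0528) and 0.83 with efruxifermin (limma adjusted p = 0.218), and neither was called by limma. With FGF21 AAV the groups did not overlap, and DESeq2 called Blcap (log2 difference 1.20, adjusted p = 0.0141), while edgeR did not (adjusted p = 0.123). These overlaps are of whole gene spans, and whether exons overlap was not checked. Reads of Nnat and Blcap, or of Mest and Copg2, cannot be told apart where exons overlap unless strand was used.

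The genes whose log2 values ran most like those of Nnat over the 19 libraries, among 12179 genes of mean RPM 5 or more, were Sult1a1, Wwc2, Rock2, Sh3glb2 and Cavin2, with Pearson's r from 0.863 to 0.890. With the group means removed they were Map7d3, Aldh5a1, Cpped1, Klf4 and Ston1, with r from 0.771 to 0.860. No gene was on both lists. Lep, which encodes the fat hormone leptin, was on neither list. It was read from a separate list of 3 fat expansion genes, with Sfrp5 and Bmp3, which are given below with Mest. Of these 3, limma called 1, Lep, with FGF21 AAV and 0 with efruxifermin, where 0.517% and 0.676% of all genes were called higher. Lep was at 15.4 ± 10.9 RPM in tumour control, 74.4 ± 23.6 in FGF21 AAV and 81.8 ± 41.6 in efruxifermin fat. Its log2 difference was 2.52 with FGF21 AAV (limma adjusted p = 0.0483) and 2.35 with efruxifermin (limma adjusted p = 0.0586).

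H19 (ENSMUSG00000000031, chromosome 7) makes a long noncoding RNA that also holds the precursor of miR-675. Its mature products are shown because they are the part of H19 that is cut out as small RNA. They are printed from RefSeq on GRCm38.p6, with the seed, bases 2 to 8, in capitals, and small RNAs were not measured in these libraries.
mmu-miR-675-5p: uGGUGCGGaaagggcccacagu
mmu-miR-675-3p: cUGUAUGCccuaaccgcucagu
In healthy fat H19 was at 258, 10.4, 33.1 and 95.6 RPM. In tumour control fat it was at 3.32, 0, 0, 629.96 and 2.73 RPM. A single tumour control library, replicate 4, was thus above all healthy libraries, and the other 4 were below all of them. In FGF21 AAV fat H19 was at 0.359, 2.98, 6.93, 46.7 and 0.953 RPM. In efruxifermin fat it was at 99.2, 0, 621, 6.65 and 10.8 RPM. The ranges of the 4 groups overlapped.

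H19 followed muscle RNA. Acta1, skeletal muscle actin, was at 12874, 136, 3396 and 2609 RPM in healthy fat. It was at 355, 0.378, 15.1, 25648 and 158 RPM in tumour control fat. The tumour control library with the most Acta1 was the one with the most H19, and the 2 with no H19 read had the least Acta1. Acta1 was at 3.24, 11.9, 97.5, 548 and 0.953 RPM in FGF21 AAV fat. It was at 855, 3.31, 7784, 131 and 213 RPM in efruxifermin fat. In each of these groups, too, the library with the most Acta1 had the most H19.

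Within groups H19 rose by 0.92 ± 0.08 log2 units per unit of the muscle score, the mean log2(RPM + 1) of 18 skeletal muscle markers, with a limma adjusted p of 3.51e-09. H19 was the 1 member of 8 tested called with an upward slope, where 2.20% of all genes tested were. On log2(RPM + 1) of Acta1 alone the slope was 0.70 ± 0.07 with a limma adjusted p of 8.3e-08, where 1.92% of all genes were called upward. The slope of H19 was called under all 31 alternatives tried. The lowest value, 0.70, is the slope on Acta1, which has another unit, and the highest was 1.14. On leaving out 1 library the slope on the muscle score was 0.86 to 0.98. The other 7 members had slopes from -0.15 (Mest) to 0.13 (Grb10), with limma adjusted p-values from 0.228 to 0.620, and none was called.

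**Figure D3:**
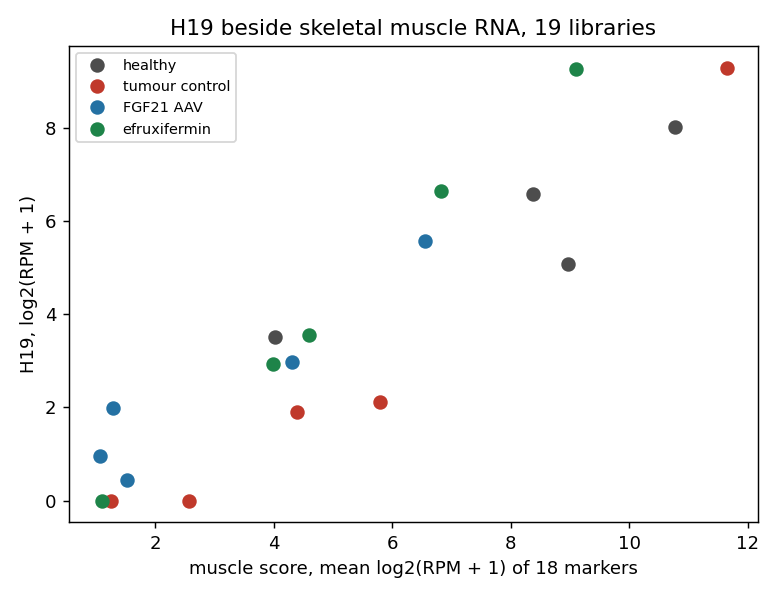
H19, as log2(RPM + 1), against the muscle score, the mean log2(RPM + 1) of 18 skeletal muscle markers, in 19 libraries coloured by group. The library with the highest score of each group has the most H19 of that group, and the libraries with 621 and 629.96 RPM of H19 have scores of 9.11 and 11.6.

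The genes most like H19 over the 19 libraries were Cmya5, Actn3, Xirp2, Myoz1 and Trim63, with Pearson's r from 0.943 to 0.953. With group means removed they were Mylpf, Eef1a2, Trim63, Actn3 and Pgam2, with r from 0.958 to 0.972. Actn3 (fast fibre alpha-actinin) and Mylpf (fast fibre myosin light chain) belong to the 18 markers of the score, and Cmya5, Xirp2, Myoz1, Trim63 and Pgam2 are also genes of striated muscle. Of markers of muscle stem cells and regenerating muscle, Pax7, Myod1, Myog and Chrna1 summed to 0 to 11.6 RPM in healthy, 0 to 46.8 in tumour control, 0 to 4.67 in FGF21 AAV and 0 to 12.6 in efruxifermin fat. Their highest sum was in the tumour control library with the most H19.

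No group difference of H19 was called. The limma log2 difference, tumour control minus healthy, was -3.14 ± 1.67 (adjusted p = 0.652), while mean RPM was higher in tumour control (127 ± 281, SD) than in healthy fat (99.3 ± 112), so that the mean and the mean log2 value differ in direction. Without tumour control library 4 and efruxifermin library 3, the 2 with the most H19, that log2 difference was -4.80 with a limma adjusted p of 0.0479, and it was called. This fit was added after the values were seen. Leaving out the 1 tumour control library with high H19 lowers its group by construction, so this call is no test of H19. In that fit 230 of 17013 genes were called in this comparison, beside 8 with all libraries. The log2 difference was -0.27 ± 1.57 with FGF21 AAV (adjusted p = 0.957) and 1.82 ± 1.57 with efruxifermin (adjusted p = 0.623) by limma. With the muscle score as a covariate it was -0.48 ± 0.67 for tumour control against healthy (limma adjusted p = 0.976). It was then 1.73 ± 0.62 with FGF21 AAV and 1.83 ± 0.60 with efruxifermin against tumour control (limma adjusted p = 0.0875 and 0.123), on equal muscle score and not called. With muscle and B cell scores both as covariates, the log2 difference of H19 with FGF21 AAV was 0.32 (limma adjusted p = 0.998). In that fit limma called 2 of 17013 genes, beside 1244 with the muscle score alone.

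The same comparison can be put as reads of H19 per 1000 reads of Acta1, in the 13 libraries with at least 100 Acta1 reads. In tumour control fat the 3 values were 9.37, 24.6 and 17.2. In FGF21 AAV fat the 2 values were 71.1 and 85.3, and in efruxifermin fat the 4 values were 116, 79.8, 50.6 and 50.9. In healthy fat the 4 values were 20.1, 76.5, 9.75 and 36.7. The treated groups lay above tumour control without overlap, and healthy fat overlapped all 3. This sets 3 tumour control libraries against 2 and 4 treated ones, and how often other genes do the same was not counted. The H19 reads behind these values were 7, 2327 and 7 in tumour control and 14 and 150 in FGF21 AAV fat. In efruxifermin fat they were 317, 1771, 21 and 29. These ratios are a description of few libraries, some with few H19 reads, and were not tested.

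Igf2 (chromosome 7), the fetal growth factor whose gene lies beside H19, had 1 read in healthy library 2 (0.371 RPM), 13 reads in tumour control library 4 (3.52 RPM) and 1 read in FGF21 AAV library 4 (0.312 RPM). All other libraries had 0 reads. In the efruxifermin group 0 of 14905899 reads allow a level of up to 0.201 RPM over the group, by counting error only. Igf2 did not pass the filter of 1 RPM in at least 4 libraries and was not tested. The library with 13 Igf2 reads was again the one with the most Acta1 and the most H19.

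Mest (ENSMUSG00000051855, chromosome 6) encodes a membrane protein with a hydrolase fold and varies with fat mass expansion in mice. In healthy fat it was at 16.2, 4.08, 3.24 and 4.40 RPM. In tumour control fat it was at 0, 0, 4.56, 0 and 1.17 RPM. Of the 5 tumour control libraries, 4 lay below all healthy libraries, and replicate 3 lay within the healthy range. In FGF21 AAV fat Mest was at 6.11, 0, 2.97, 5.61 and 7.30 RPM. In efruxifermin fat it was at 41.3, 59.9, 0, 40.2 and 5.60 RPM, so that 3 libraries stood above every library of the other groups and 1 had no read.

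The limma log2 difference of Mest, efruxifermin minus tumour control, was 3.17 ± 0.94 (95% interval 1.22 to 5.11) with an adjusted p of 0.123, and it was not called. DESeq2 on recovered reads called it, with a log2 difference of 4.71 and an adjusted p of 0.00623, and edgeR did not (adjusted p = 0.139). Efruxifermin library 3 had no Mest read, the highest muscle score of its group and the fewest genes with reads of all 19 libraries (12537). It also had the lowest adipocyte score of its group, 8.52. The gene Gm42418 made up 17.3% of its reads, beside 3.62% to 8.81% in the rest of its group. Without this library the limma log2 difference of Mest was 4.14 with an adjusted p of 0.006. That fit called 377 of 17013 genes in this comparison, beside 130 with all libraries. Over all fits that left out 1 library the limma log2 difference of Mest was 2.65 to 4.14. The part of these traits of library 3 in its Mest value was not tested. With the adipocyte score as a covariate and all libraries the limma log2 difference was 1.16 ± 1.08 with an adjusted p of 0.79. With FGF21 AAV the log2 difference was 1.40 ± 0.94 (limma adjusted p = 0.489), and in tumour control against healthy fat it was -2.02 ± 1.00 (limma adjusted p = 0.617). Efruxifermin minus FGF21 AAV was 1.76, with a 95% interval of -0.18 to 3.71 (limma adjusted p = 0.879).

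Mest hosts miR-335, and its sequences are printed from RefSeq on GRCm38.p6, with the seed, bases 2 to 8, in capitals. None of the 4 miRNA strands shown shares a seed with another. The promoter of Mest with the highest CpG ratio of its 3 entries, chr6:30737803-30738102 on the plus strand, follows for comparison with that of Nnat, marked in the same way. Its 1 GC box, GGGCGG, begins 60 bases before the start.
mmu-miR-335-5p: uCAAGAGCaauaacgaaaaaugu
mmu-miR-335-3p: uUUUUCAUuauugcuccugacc
Mest promoter: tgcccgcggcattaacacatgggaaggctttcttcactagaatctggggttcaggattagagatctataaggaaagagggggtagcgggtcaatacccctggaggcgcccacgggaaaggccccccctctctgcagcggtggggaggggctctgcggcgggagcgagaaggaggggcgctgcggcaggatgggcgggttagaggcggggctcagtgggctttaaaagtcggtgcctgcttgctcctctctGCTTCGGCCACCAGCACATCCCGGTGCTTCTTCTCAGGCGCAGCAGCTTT
The observed over expected CpG ratio was 0.605 in this promoter of Mest and 0.690 in that of Nnat, against a median of 0.384 over all 32851 promoters. The set of RefSeq promoters used here held 13 entries for 7 of the 9 members and none for H19 and Cdkn1c. Their median CpG ratio was 0.590 and their median GC content 61.3%, against 52.7% over all promoters. Mest, Igf2 and Grb10 had more than 1 entry, and Mest windows overlap, so the 13 are not independent. Of the 13, 7 held the GC box, 2 the CCAAT box, 1 the nuclear receptor motif and 0 the TATA box. H19 and Cdkn1c are not shown.

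The genes most like Mest were Rbms1, App, Tmbim6, Slc9a3r2 and Dram1, with Pearson's r from 0.832 to 0.884 over 19 libraries, and Rbms1 and App were also among the 5 most like it with group means removed. Other genes known to vary with fat expansion were Sfrp5, an inhibitor of Wnt signals, and Bmp3, a growth factor of the BMP family. Sfrp5 was at 24.7 ± 18.6 RPM in healthy, 7.37 ± 11.3 in tumour control, 5.77 ± 4.13 in FGF21 AAV and 3.85 ± 3.03 in efruxifermin fat. Bmp3 was at 18.5 ± 15.4, 5.32 ± 1.84, 13.5 ± 6.90 and 16.5 ± 17.0 RPM in the same order. Neither was called in any comparison with tumour control.

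Plagl1 (chromosome 10) encodes a zinc finger transcription factor that binds at other genes of the imprinted network. It was at 74.5, 44.9, 38.1 and 130 RPM in healthy fat. It was at 20.4, 32.9, 70.2, 82.6 and 72.1 RPM in tumour control fat. It was at 70.8, 157, 164, 100.3 and 65.1 RPM in FGF21 AAV fat. All FGF21 AAV libraries lay above the lower 2 tumour control libraries, and the groups overlapped. In efruxifermin fat Plagl1 was at 185, 117, 182, 238 and 68.0 RPM, and 4 of the 5 libraries lay above all tumour control libraries.

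The log2 difference of Plagl1, efruxifermin minus tumour control, was 1.54 ± 0.42, or 2.91-fold, with a limma adjusted p of 0.0853, and it was not called. It was called with the muscle score as a covariate (limma adjusted p = 0.0469), without tumour control library 4 (0.0312) and without efruxifermin library 5 (0.0418). The log2 differences were 1.54, 1.73 and 1.81. In these 3 fits limma called 239, 599 and 137 of 17013 genes, beside 130 with all libraries and no covariate. On leaving out 1 library the limma log2 difference of Plagl1 was 1.24 to 1.81. Plagl1 was not called with the adipocyte score as a covariate (1.19, limma adjusted p = 0.555), where 1 of 17013 genes was called. Among libraries with a B cell score of 3 or less, with 1 tumour control library, its log2 difference was 1.14. With FGF21 AAV the log2 difference was 1.06 ± 0.42 (limma adjusted p = 0.219). The genes most like Plagl1 were Gjc1, Cald1, Cyb5r3, Wdr60 and Nrp1, with r from 0.838 to 0.900. Gjc1 encodes a connexin and Cald1 caldesmon, both found in smooth muscle. The summed RPM of 8 markers of mural cells, which wrap small vessels, was 451 to 870.21 in healthy, 174 to 361 in tumour control, 327 to 559.56 in FGF21 AAV and 408 to 557 in efruxifermin fat, and its part in the values of Plagl1 was not tested.

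Peg3 (chromosome 7), a zinc finger protein of the same network, was at 73.1, 44.2, 66.9 and 114 RPM in healthy fat. It was at 20.9, 10.2, 96.1, 54.1 and 36.7 RPM in tumour control fat. The ranges overlapped, with 3 tumour control libraries below the lowest healthy one. It was at 39.9, 66.1, 37.1, 61.4 and 45.4 RPM in FGF21 AAV fat and at 50.05, 15.9, 100.3, 107 and 91.9 RPM in efruxifermin fat. The limma log2 differences were -1.05 ± 0.53 for tumour control against healthy, 0.52 ± 0.50 with FGF21 AAV and 0.83 ± 0.50 with efruxifermin, with adjusted p-values of 0.626, 0.653 and 0.475. Cped1 was the gene most like Peg3, with an r of 0.912.

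Cdkn1c (chromosome 7), an inhibitor of cyclin-dependent kinases that holds cells out of the cell cycle, was at 55.9, 59.02, 30.6 and 86.1 RPM in healthy fat. It was at 25.6, 8.32, 19.6, 39.0 and 42.9 RPM in tumour control fat. Each group had 1 or more libraries within the range of the other. It was at 33.4, 34.3, 49.99, 50.5 and 39.4 RPM in FGF21 AAV fat and at 23.8, 39.4, 52.6, 50.3 and 43.0 RPM in efruxifermin fat. The log2 difference of tumour control minus healthy was -1.17 ± 0.41 (limma adjusted p = 0.341). Those with FGF21 AAV and efruxifermin were 0.77 ± 0.38 and 0.75 ± 0.38 (limma adjusted p = 0.331 and 0.391), and none was called. Proca1, Ift81, Sparcl1, Met and Tcf15 were most like it, with r from 0.819 to 0.878.

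Grb10 (chromosome 11), an adaptor protein that restrains signals of the insulin and IGF1 receptors, was at 64.7, 39.7, 27.3 and 57.2 RPM in healthy fat. It was at 8.54, 14.4, 23.5, 52.2 and 52.3 RPM in tumour control fat and at 36.7, 69.6, 57.4, 45.5 and 53.7 RPM in FGF21 AAV fat. In efruxifermin fat it was at 91.03, 0.331, 5.26, 60.4 and 41.5 RPM. Efruxifermin libraries 2 and 3 were the lowest of all 19, while library 1 was the highest. The limma log2 differences were -0.86 ± 0.83 for tumour control against healthy, 1.06 ± 0.79 with FGF21 AAV and -0.47 ± 0.79 with efruxifermin, with adjusted p-values of 0.879, 0.541 and 0.828. Without efruxifermin library 2 the last was 0.47. Chrdl1, Copz2, Tbx18, Ackr3 and Ddr2 were most like Grb10, with r from 0.869 to 0.919.

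Dlk1 (chromosome 12), a transmembrane protein of preadipocytes that holds back their differentiation, was near the limit of detection. It was at 2.11, 0, 2.88 and 8.06 RPM in healthy fat and at 1.42, 0, 5.26, 1.35 and 0 RPM in tumour control fat. It was at 1.44, 0, 0, 2.18 and 0.318 RPM in FGF21 AAV fat. In efruxifermin fat 16 reads in library 1 gave 5.005 RPM and the other 4 libraries had 0 reads. The groups overlapped, and the limma log2 differences of -0.66, -0.36 and -0.51 in the same order of comparisons had adjusted p-values of 0.893, 0.836 and 0.757.

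**Figure D4:**
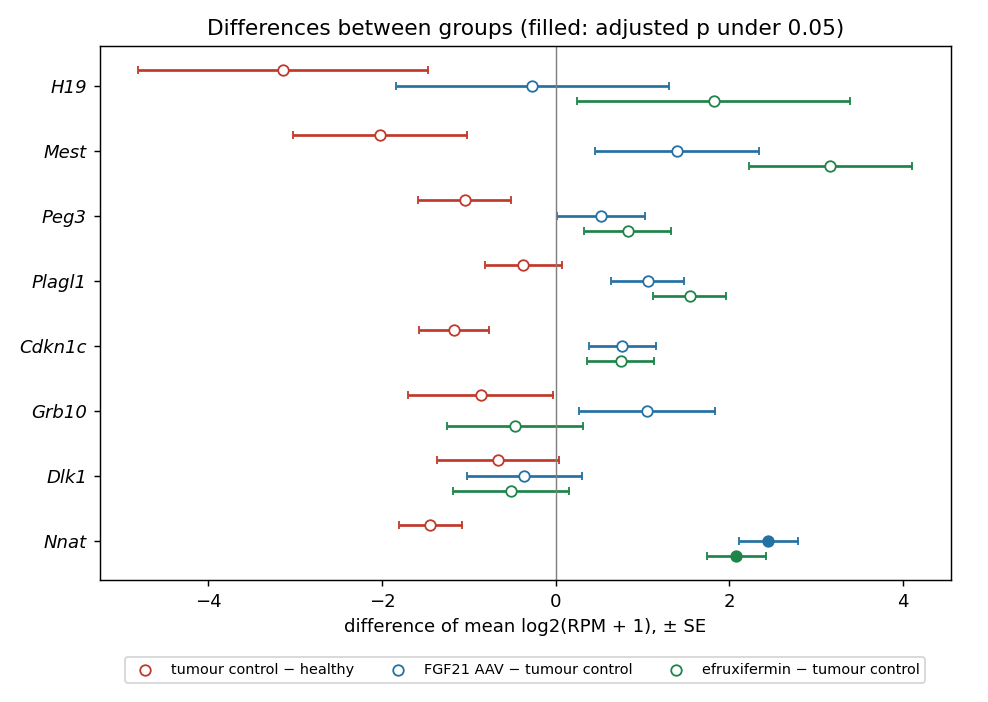
Differences of mean log2(RPM + 1) with their SE for the 8 members tested, in 3 comparisons: tumour control minus healthy, FGF21 AAV minus tumour control and efruxifermin minus tumour control. Filled points were called by limma, and these are the 2 treatment differences of Nnat, at 2.45 and 2.08. All 8 points of tumour control minus healthy lie below 0 and are open.

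In tumour control against healthy fat limma called 0 of the 8 members tested, where 0.0470% of all genes were called lower and 0 were called higher. At an unadjusted p under 0.05 the count was 2 (Nnat and Cdkn1c), where 8.32% of all genes passed. By edgeR it was 0, where 0.00588% of all genes were called. By DESeq2 it was 0, where 0.293% of the genes it gave an adjusted p were called, and it gave none to H19 and Dlk1. All 8 log2 differences were below 0, with a median of -1.11 beside -0.16 over all genes tested. Marker lists moved with them: the median log2 difference was -1.43 over the 12 adipocyte markers, -1.63 over 10 stromal progenitor markers, -2.84 over the 18 muscle markers and 2.58 over the 10 B cell markers, and their part in the members' differences was not tested. The members did not overlap between the groups in 1 case, Nnat, as for 3.66% of all genes on the lower side.

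With FGF21 AAV 6 of 8 log2 differences were above 0, with a median of 0.91 beside -0.05 over all genes, and with efruxifermin 6 of 8, with a median of 1.19 beside -0.14. Between the treatments limma called 0 members, and 0 of all genes. At an unadjusted p under 0.05 the count was 0, where 5.55% of all genes passed, and it was 0 by edgeR (0 of all genes) and by DESeq2 (0.112% of the genes it gave an adjusted p). With FGF21 AAV against healthy fat limma called 0 members, where 0.0118% of all genes were called. At an unadjusted p under 0.05 the count was 1, Nnat, where 5.34% passed, and it was 0 by edgeR (0.00588% of all genes) and by DESeq2 (0.166%). With efruxifermin against healthy fat limma called 0 members, and 0 of all genes. At an unadjusted p under 0.05 the count was 1, Plagl1, where 8.07% passed, and it was 0 by edgeR (0 of all genes) and by DESeq2 (0.101%). The shares of DESeq2 are of the genes it gave an adjusted p, and it gave H19 none in any comparison.

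Other imprinted genes were read from a list of 34 names, of which 29 had a row and 27 were tested. Limma called 0 of the 27 in tumour control against healthy fat (5 at an unadjusted p under 0.05, 0 by edgeR and 0 by DESeq2), with a median log2 difference of -0.78. It called 0 with FGF21 AAV (6 at an unadjusted p under 0.05, 0 by edgeR and 1 by DESeq2, Ppp1r9a) and 0 with efruxifermin (4 at an unadjusted p under 0.05, 0 by edgeR and 1 by DESeq2, Meg3), with medians of 0.37 and 0.27. Over all genes tested, 8.32%, 16.0% and 13.9% passed an unadjusted p under 0.05 in these 3 comparisons, and DESeq2 called 0.293%, 8.55% and 2.57% of those it gave an adjusted p. The genes that DESeq2 called were named after their values were seen. Meg3, a maternally read noncoding RNA that shares an imprinted cluster with Dlk1, was at 164 ± 49.6 RPM in healthy, 46.3 ± 36.0 in tumour control, 118 ± 28.8 in FGF21 AAV and 191 ± 164 in efruxifermin fat. Its log2 difference was 2.10 ± 0.51 with efruxifermin (limma adjusted p = 0.0537), 1.75 ± 0.51 with FGF21 AAV (limma adjusted p = 0.105) and -2.20 ± 0.55 in tumour control against healthy fat (limma adjusted p = 0.134).

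The other 3 imprinted genes of highest mean RPM were Gnas, the gene of a G protein subunit, and the noncoding RNAs Kcnq1ot1 and Airn, each read from the strand opposite to a protein-coding gene. Gnas was at 1018 ± 121 RPM in healthy, 838 ± 48.1 in tumour control, 786 ± 138 in FGF21 AAV and 837 ± 188 in efruxifermin fat. Kcnq1ot1 was at 334 ± 73.2, 357 ± 96.5, 323 ± 60.2 and 301 ± 34.6 RPM, and Airn at 97.1 ± 34.6, 66.6 ± 19.8, 107 ± 31.7 and 91.6 ± 44.2 RPM, in the same order. Their log2 differences in the 3 comparisons ran from -0.53 to 0.67, and since strand use in counting is not stated, their reads may hold reads of the opposite gene.

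The IGF axis, the ligands, receptors and binding proteins around Igf2, was read from 21 genes, of which 18 were tested. Limma called 0 in tumour control against healthy fat (8 at an unadjusted p under 0.05, 0 by edgeR and 1 by DESeq2, Igfbp6), 0 with FGF21 AAV (7 at an unadjusted p under 0.05, 0 by edgeR and 1 by DESeq2, Igf1) and 0 with efruxifermin (5 at an unadjusted p under 0.05, 0 by edgeR and 1 by DESeq2, Igf2bp2). The shares over all genes are those given for the other imprinted genes: 8.32%, 16.0% and 13.9% at an unadjusted p under 0.05, and 0.293%, 8.55% and 2.57% by DESeq2. The medians of the log2 differences were -0.78, 0.58 and 0.19, beside -0.16, -0.05 and -0.14 over all genes tested. Igf1, the ligand that acts after birth, was at 393 ± 172 RPM in healthy, 161 ± 85.9 in tumour control, 376 ± 47.6 in FGF21 AAV and 276 ± 153 in efruxifermin fat. Its log2 difference was 1.34 ± 0.37 with FGF21 AAV (limma adjusted p = 0.0848). Igfbp6, which binds IGF2 by preference, was at 48.4 ± 23.9 RPM in healthy and 8.37 ± 7.21 RPM in tumour control fat, with a limma adjusted p of 0.0611.

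Of the binding proteins of the IGF ligands, Igfbp5 was at 1239 ± 855 RPM in healthy, 615 ± 347 in tumour control, 962 ± 579.98 in FGF21 AAV and 669 ± 413 in efruxifermin fat. Igfbp4 was at 381 ± 145, 252 ± 49.9, 240.0 ± 70.03 and 223 ± 132 RPM and Igfbp7 at 190.3 ± 69.4, 91.0 ± 41.9, 186 ± 90.8 and 199 ± 123 RPM in the same order. Their log2 differences in the 3 comparisons had limma adjusted p-values from 0.256 to 0.908. Igf2bp2, an RNA-binding protein named for its binding to Igf2 mRNA, was at 7.23 ± 3.13, 6.00 ± 2.70, 26.4 ± 9.22 and 27.6 ± 13.9 RPM, with log2 differences of 2.00 with FGF21 AAV and 1.95 with efruxifermin (limma adjusted p = 0.0644 and 0.0708).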

How the data were processed

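Libraries were made with the QuantSeq 3' FWD kit, per the labels. The submitters' processing notes name the GRCm39 genome and the tools FastQC, cutadapt, HISAT2 and HTSeq. Versions and the strand setting are not given in the sources used here. The deposited values are RPM, per the labels scaled to library size. In 19 of 19 libraries 100% of values of up to 1000 reads lay within 0.05 of a whole number of reads, so reads were recovered for edgeR 4.0.16 and DESeq2 1.42.0. Per-library depth was 2011067 to 3693864 reads, and floors (3 reads) cover counting error only, since PCR reads are not independent molecules.

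Genes with 1 RPM or more in at least 4 libraries (17013, of them 8 of the 9 members) were fitted in 4 groups with limma 3.58.1 (trend option, two-sided) in R 4.3.3 on log2(RPM + 1), tested on simulated data. Groups came from the labels. The members, marker lists and the rule for named genes (all members, the 4 genes of highest mean RPM of 2 related lists, and the 5 genes most like each member of mean RPM 5 or more) were chosen with earlier results of these data known. Replicate numbers did not pair the libraries. No libraries were duplicates. Coordinates are from RefSeq and GENCODE M21 tables of GRCm38, used for sequences and names, not for the values. P-values measure the spread between these mice.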

Additional observations from a re-analysis of the deposited data

Results flagged for a closer look

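Of 35 sets of 4 or 5 libraries of a gene and group, 6 held 1 library far from the others by Dixon's test. With normally distributed values chance gives this in about 1 of 20 sets. That rate does not apply to the Igf2 and Dlk1 sets below, where all other libraries were at 0 and a single read is flagged. H19 was at 629.96 RPM in tumour control library 4, where the next library of the group had 3.32 RPM, and this library had the most muscle RNA of all 19. Igf2 had reads in 1 library only of 3 groups, at 0.371 RPM in healthy library 2, 3.519 RPM in tumour control library 4 and 0.312 RPM in FGF21 AAV library 4. Dlk1 was at 5.005 RPM in efruxifermin library 1 and at 0 in the other 4. Nnat was at 627.54 RPM in FGF21 AAV library 1, where the next library had 1343 RPM, and this library had the highest B cell score of its group, 6.55. Gm42418 made up 2.06% of its reads, beside 8.32% to 15.4% in the rest of its group. The causes were not tested.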

How the results depend on the processing

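The slope of H19 on muscle RNA was called under all alternatives tried. The counts of 0 members called between the treatments, and for each treatment against healthy fat, held under all of them. In efruxifermin against tumour control the count of 1 became 2 by DESeq2 and with the muscle score as a covariate, 0 with only those 2 groups fitted, and 0 to 2 on leaving out 1 library. Of all genes, 130 were called by limma with all libraries, 400 by DESeq2 and 239 with the muscle score. With only those 2 groups 1 was called, and on leaving out 1 library 4 to 599 were. Alternatives added after seeing the data gave 0 with the adipocyte score as a covariate (1 of all genes called) and 3 without tumour control 4 and efruxifermin 3 (732 of all genes called). With FGF21 AAV the count of 1 became 0 with the adipocyte covariate and among libraries with a B cell score above 3. In each of these 1 of all genes was called, beside 96 with all libraries. The set with a B cell score of 3 or less held 1 tumour control library and is left out of these counts. In tumour control against healthy fat limma called 8 of all genes and 0 members. That count of 0 became 2 without tumour control 4 and efruxifermin 3, in a fit added after seeing the data. H19 was then at -4.80, which is no test since its high library was left out, and Nnat at -1.51, with 230 of all genes called. The count became 1 with the replicate block (Nnat at -1.52, limma adjusted p = 0.0489, with 40 of all genes called). The numbers do not show a pairing: 8 of 27 pairs with the same number and 24 of 108 other pairs correlated above 0.1, and for 7 of 19 libraries the closest match had the same number.

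Members that were not called turned direction as follows, and the cause was not tested. For H19 with FGF21 AAV the log2 difference was 0.19 at a pseudocount of 0.25, 1.73 with the muscle score, 1.48 with Acta1, 0.32 with muscle and B cell scores and 0.88 with the adipocyte score as covariates. It was 1.39 without tumour control 4 and efruxifermin 3, 0.71 among libraries with a B cell score above 3, and -1.07 to 1.39 on leaving out 1 library. For H19 in tumour control against healthy fat it was 0.87 by edgeR, 0.92 by DESeq2 and 2.00 at a B cell score of 3 or less. For H19 with efruxifermin it was -0.048 by edgeR, -0.0043 by DESeq2 and -1.34 at a B cell score of 3 or less. Grb10 with efruxifermin was 0.22 by edgeR, 0.20 by DESeq2, 0.18 without tumour control 4 and efruxifermin 3, and -1.05 to 0.47 on leaving out 1 library. With the adipocyte score, Mest (-0.80), Peg3 (-0.34) and Grb10 (-0.49) with FGF21 AAV, and Grb10 (0.31) and Dlk1 (0.13) in tumour control against healthy fat, turned. In the latter, Plagl1 was 0.00995 with the B cell score and 0.057 at a B cell score above 3, where Dlk1 was 0.0034. At 3 or less, Cdkn1c was -0.13 and Dlk1 0.058 with efruxifermin. Dlk1 with FGF21 AAV was -0.62 to 0.043 on leaving out 1 library. Nnat, efruxifermin minus FGF21 AAV, was 0.12 at a B cell score above 3. Slopes on muscle RNA were -0.088 (Dlk1) and -0.014 (Nnat) with the replicate block, and 0.042 (Mest) without tumour control 4 and efruxifermin 3.

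TMM factors, median-of-ratios factors and leaving out the 50 most abundant genes moved the median of all genes by up to 0.16 on the log2 scale and turned no member in the 3 comparisons with limma. Igf2 and Dlk1 rest on few reads. Other members in the comparisons not reported here were left out of the alternatives.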
